A study of Mus musculus with 8 samples.

Results

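The genes described here are the secreted and membrane-bound proteases that cut the extracellular matrix, together with their natural inhibitors. They were taken as every probe set whose platform annotation gave exactly 1 symbol, where that symbol was Reck or began with Mmp, Timp or Adamts followed directly by a number. This gave 71 of the 45101 probe sets on the array, standing for 38 of 18193 named genes. Of these, 47 probe sets of 28 genes were bright enough to be tested. The rule reads gene symbols only.

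The study measured subcutaneous preadipocytes, committed progenitors that can mature into fat cells, from day 2 newborn C57BL/6 mice. All cells carried Dicer lox/lox, floxed alleles of the enzyme needed to make most mature microRNAs. At 750 MOI with 4 µg/mL polybrene, 4 control samples received an adenovirus with GFP (Ad5CMVeGFP) and 4 Dicer knockout samples one with Cre recombinase and GFP (Ad5CMVCre-eGFP), both named for a CMV promoter. RNA was taken 4 days later, and each sample was hybridised to 1 Affymetrix array. The labels give 10% fetal bovine serum for all samples. Both groups thus shared the floxed genotype, the virus backbone and GFP, and effects of Cre cannot be told apart from those of Dicer loss. The labels number the biological replicates 1 to 4 in each group but name neither an animal nor a culture, and the p-values therefore reflect only how these samples vary. In bulk RNA, fewer cells of a type and less RNA per cell cannot be told apart.

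Matrix metalloproteinases (Mmp) are zinc enzymes made as inactive precursors. They cut collagens, gelatin, laminins and many other matrix proteins, and fat tissue needs them to remodel its matrix as it grows. Adamts proteases are related secreted enzymes that cut proteoglycans such as versican and aggrecan, trim procollagens or act on microfibrils. Timp proteins block the active site of both families to differing extents, and Reck is a membrane-anchored inhibitor of several metalloproteinases.

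Several of these genes are known targets of microRNAs, whose maturation needs Dicer. The sequences below are the mature microRNAs of 4 seed families with the best known targets among the members, with the seed (bases 2 to 8) in capitals, from RefSeq (GRCm38.p6). In the literature miR-21 represses Reck and Timp3, the miR-221 family Timp3, the miR-29 family Mmp2 and the miR-27 family Mmp13. The microRNAs themselves were not measured on these arrays.
miR-21a-5p: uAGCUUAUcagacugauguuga
miR-221-3p: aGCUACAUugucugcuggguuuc
miR-222-3p: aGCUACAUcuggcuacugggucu
miR-29a-3p: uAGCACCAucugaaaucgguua
miR-29b-3p: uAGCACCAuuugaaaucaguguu
miR-27a-3p: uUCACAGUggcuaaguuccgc
miR-27b-3p: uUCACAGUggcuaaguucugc

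The arrays had median signals of 321.1 to 418.9, with a trimmed mean of 1500.0 on each. Replicates 1 and 3 of both groups stood apart from 2 and 4 in an 18S ribosomal RNA control probe set, at 5905.9 to 14007.2 against 30583.9 to 43029.9, so differences within each kind are given for the members whose array values are shown. Dicer1 itself was read by 2 probe sets with log2 differences of -0.15 (SE 0.20) and -0.26 (SE 0.27; limma adjusted p = 0.999 for each), and as their position relative to the floxed segment is unknown here, they do not check the deletion. Of the preadipocyte and stromal markers, 9 of 9 in the annotation were bright enough to be tested, Pdgfra and Col1a1 among them. Of the markers of macrophages and leukocytes 5 of 9 were tested, of osteoclasts and neutrophils 4 of 6, of endothelium 3 of 6, of keratinocytes 2 of 5, of skeletal muscle 3 of 5, and of cartilage and bone 4 of 5. Ptprc, Pecam1, Krt14 and Myog, which define leukocytes, endothelium, basal keratinocytes and muscle cells, were among those too dim to be tested. Tested ones had control means of 1343 for Cd68, 1006 for Kdr, 2285 for Krt10, 1597 for Des and 5355 for Ctsk. Cd68, Krt10, Ctsk and Acp5 were lower in 4 of 4 pairs, none of them called. No tested marker of the non-stromal lists was higher in 4 of 4. Log2 differences lay above 0 for 2 of 5 tested macrophage and leukocyte markers and 1 of 4 of osteoclasts and neutrophils. They did so for 3 of 3 of endothelium, 1 of 2 of keratinocytes and 3 of 4 of cartilage and bone. Of the 9 stromal markers 6 had a log2 difference below 0 and 3 above (median -0.087), and 1, Dlk1, was called lower in the paired fit (-0.72, paired adjusted p = 0.0436) but not in the unpaired one (limma adjusted p = 0.999). Dcn and Pdgfrb were also lower in 4 of 4 pairs and Thy1 higher in 4 of 4, none of them called. The 3 tested muscle genes all lay above 0 (median 0.55, 0 called). Myod1 (0.55, SE 0.32) and Ckm (0.74, SE 0.46) were dim, at control means of 298 and 258. Des, the brightest of the 3, gave 0.025 (SE 0.23). The signal summed over all 5 muscle markers, dim ones included, was 1587.0 to 2912.2 in controls and 2436.2 to 3248.5 in knockouts. The part of these cell types in the results below was not tested.

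No matrix protease or inhibitor passed the test between Dicer knockout and control. By limma, adjusted after Benjamini and Hochberg across the 27026 probe sets tested, 0 of the 47 member probe sets were called at an adjusted p of 0.05, where 1 probe set in all (0.0037%) was. With the replicate number as a block, called the paired fit below, 0 members were called again, where 13 probe sets in all (0.0481%) were. The paired count over all probe sets was 80 without replicate 1, 0 without replicate 3 and 2 without replicate 4, with 0 members each time. The smallest adjusted p of a member was 0.999 in the unpaired and 0.0885 in the paired fit. An unadjusted limma p under 0.05 was reached by 4 member probe sets (Adamts15, Reck and 2 of Timp2), 8.51% of them, against 3.77% of all tested probe sets.

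Small differences leaned to lower values in the knockout. With each gene represented by its brightest tested probe set, 19 of 28 genes had a log2 difference (knockout minus control) below 0 and 9 above. The share below 0 was 67.9% of the members, against 50.4% of all 13259 tested genes. The median was -0.0954 over the members and -0.00201 over all tested genes. The medians of replicate pairs 1 to 4 were -0.138, -0.0654, -0.0198 and -0.281, and their SD of 0.114 exceeded the size of the member median. In the paired fit 12 member probe sets (25.5%) were lower at an unadjusted p under 0.05, against 4.47% of all tested probe sets, and 1 (2.13%) was higher, against 4.67%. The 12 came from 7 genes, Timp2 with 5, Mmp2 with 2, and Mmp3, Mmp11, Mmp14, Adamts1 and Adamts15 with 1 each, and the higher one was Reck. Probe sets of 1 gene read the same gene and are not independent. Counted once per gene by the brightest probe set, 6 of 28 members (21.4%) were lower, against 5.35% of all tested genes, and 1 (3.57%) was higher, against 4.96%. Likewise, 12 member probe sets (25.5%) were lower in 4 of 4 pairs, against 8.24% of all tested, and 3 (6.38%) were higher in 4 of 4, against 8.63%. By the brightest probe set, 7 of 28 member genes were lower in 4 of 4 pairs, against 9.44% of all tested genes. Higher in 4 of 4 were 2 of 28, against 8.64%. All member genes were read on the same 8 arrays, so counts of genes are not independent either. The members were also chosen with earlier results of these data known, and the lean of the members as a set was not tested.

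**Figure D1:**
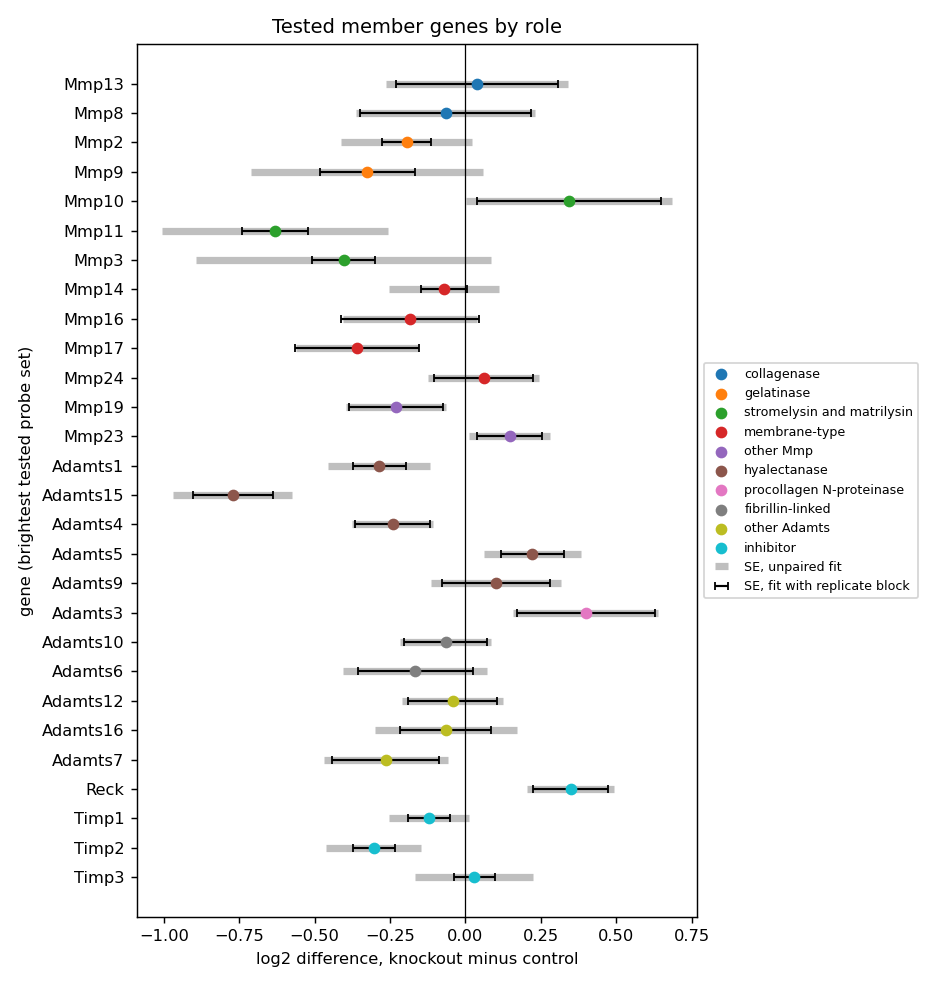
Log2 difference between knockout and control (horizontal axis) for the 28 tested member genes, coloured by role, with the standard error of the unpaired fit (grey bars) and of the paired fit (black bars). Differences run from -0.77 (Adamts15) to 0.40 (Adamts3), and the black bars are much shorter than the grey for Mmp3, Mmp9, Mmp11, Mmp2 and Timp3.

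Among the inhibitors, Reck read higher and Timp2 lower in the knockout, while Timp1 and Timp3 differed by less. None of the 4 tested inhibitors passed the test. Reck has 1 probe set on the array (1450784_at). It read 3087, 2392, 2917 and 3314 across controls 1 to 4, against 3196, 3855, 4508 and 3464 across knockouts 1 to 4. The groups overlapped, since knockout 1 lay below control 4, but the knockout was the higher in 4 of 4 pairs. Means were 2927 ± 392 and 3756 ± 570 (SD, n = 4 each), which is 0.35 on the log2 scale (SE 0.14, limma adjusted p = 0.999, paired adjusted p = 0.406). An exact two-sided permutation test gave p = 0.0571. Pairs 2 and 3 differed by 0.67 and 0.62, and pairs 1 and 4 by 0.049 and 0.062, so that odd-numbered and even-numbered pairs gave like means of 0.33 and 0.37.

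Timp2, which inhibits most metalloproteinases and also takes part in activating pro-Mmp2 on the cell surface, was read by 5 tested probe sets. All 5 had a log2 difference below 0, from -0.36 to -0.17, and 1 more probe set was too dim to be tested. The brightest (1454677_at) read 43290, 36262, 34082 and 25465 across controls 1 to 4, against 32460, 28582, 28184 and 22427 across knockouts 1 to 4. The knockout was the lower in 4 of 4 pairs, with log2 differences of -0.41, -0.34, -0.27 and -0.18, although the groups overlapped. Means were 34775 ± 7345 and 27913 ± 4135 (SD, n = 4 each), which is -0.30 on the log2 scale (SE 0.16, paired SE 0.07, limma adjusted p = 0.999, paired adjusted p = 0.164). The odd-numbered pairs had a mean of -0.34 and the even-numbered ones of -0.26.

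The Timp2 probe sets differed in how they varied among controls. For 1460287_at the controls were close together, at 32144, 32575, 32049 and 29726, and the knockouts read 22413, 28138, 26035 and 30067. There the fourth pair went the other way, and the log2 difference was -0.25 (SE 0.10; exact two-sided permutation p = 0.0571). The remaining tested probe sets were lower in 4 of 4 pairs (1433662_s_at and 1450040_at) or in 3 of 4 (1420924_at), with 1450040_at giving the smallest paired p of the gene (unadjusted 0.000739, adjusted 0.153).

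Timp1, a secreted inhibitor that stromal cells make in large amounts, read 24175, 20834, 25610 and 19798 across controls 1 to 4, against 21680, 19253, 25436 and 17237 across knockouts 1 to 4. The groups overlapped almost throughout, although each knockout array lay below its same-numbered control. On the log2 scale this was -0.12 (SE 0.13, limma adjusted p = 0.999), with -0.083 in odd-numbered and -0.16 in even-numbered pairs.

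Timp3, the inhibitor that binds to the matrix and also blocks several Adam and Adamts proteases, read 27548, 24631, 30736 and 17895 across controls 1 to 4, against 27828, 24615, 33231 and 17776 across knockouts 1 to 4 (1419089_at). Same-numbered arrays were close to each other, and the array numbered 4 was the lowest in both groups. Its log2 difference was 0.029 (SE 0.20, paired SE 0.07, limma adjusted p = 0.999), with 0.063 in odd-numbered and -0.0053 in even-numbered pairs. Of its 4 tested probe sets 3 had differences above 0, and 1449335_at gave -0.018 (SE 0.21). Timp4, the fourth inhibitor, was too dim to be tested in both of its probe sets.

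**Figure D2:**
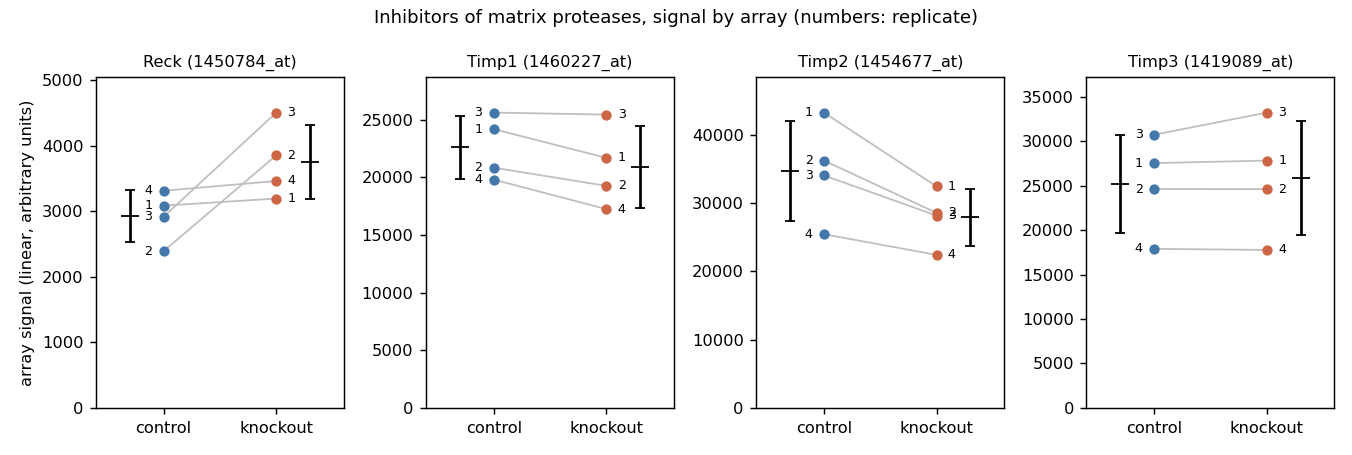
Array signal (vertical axis, linear, arbitrary units) of Reck, Timp1, Timp2 and Timp3 on each control and knockout array, with grey lines joining same-numbered replicates and black bars giving mean and SD (n = 4). Reck is higher and Timp2 lower in the knockout in 4 of 4 pairs, and the lines of Timp3 are nearly flat.

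Of the Adamts proteases that cut hyaluronan-binding proteoglycans, 5 of 7 in the annotation were tested, 3 with a log2 difference below 0 and 2 above, with a median of -0.24 and 0 called. Adamts15, an aggrecan and versican protease, had the largest difference of all members and the only groups that did not overlap among the 47 member probe sets (2.13%, against 2.46% of all tested probe sets). Its probe set 1427056_at read 1855, 2217, 2470 and 1276 across controls 1 to 4, against 1165, 1187, 1132 and 877 across knockouts 1 to 4. The highest knockout array lay just below the lowest control array, number 4, which was itself low among controls. Means were 1954.5 ± 518 and 1090 ± 144 (SD, n = 4 each), 1.71-fold lower in the knockout, a log2 difference of -0.77 (SE 0.20, paired SE 0.13). The difference did not pass over all probe sets (limma adjusted p = 0.999, paired adjusted p = 0.0885), and the exact two-sided permutation p was 0.0286, the smallest that 4 against 4 arrays allow. Pairs 1 to 4 gave -0.64, -0.86, -1.08 and -0.51, with means of -0.86 over the odd-numbered and -0.68 over the even-numbered ones.

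Adamts1, a versican protease that is induced in many tissues undergoing remodelling, read 9508, 6850, 9455 and 9199 across controls 1 to 4, against 8678, 5271, 8570 and 6488 across knockouts 1 to 4. The array numbered 2 was the lowest in both groups, and the knockout was the lower in 4 of 4 pairs. Knockout minus control came to -0.29 in log2 (SE 0.17, paired SE 0.09, limma adjusted p = 0.999, paired adjusted p = 0.324), with -0.14 in odd-numbered and -0.44 in even-numbered pairs.

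Adamts4 and Adamts5 are the main aggrecan-cutting enzymes of cartilage, and their differences had opposite signs here. Adamts4 read 1654, 1643, 2033 and 1933 across controls and 1701, 1479, 1516 and 1393 across knockouts 1 to 4, lower in 3 of 4 pairs. This was -0.24 on the log2 scale (SE 0.13, limma adjusted p = 0.999). Adamts5 (1422561_at) read 7493, 5007, 7099 and 5751 across controls and 7190, 7257, 9274 and 5892 across knockouts 1 to 4, higher in 3 of 4 pairs. Its log2 difference was 0.22 (SE 0.16, limma adjusted p = 0.999), and its other 2 tested probe sets gave 0.12 and 0.086. Adamts4 had means of -0.18 over odd-numbered and -0.30 over even-numbered pairs, and Adamts5 of 0.16 and 0.28. Adamts9, also a proteoglycan protease, gave 0.10 (SE 0.21).

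**Figure D3:**
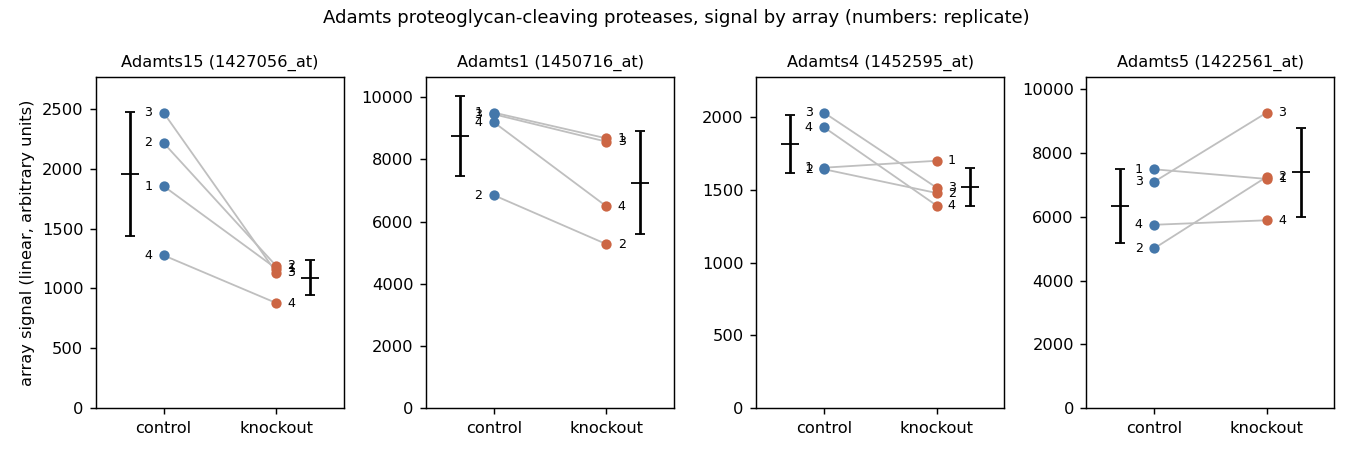
Array signal (vertical axis, linear, arbitrary units) of Adamts15, Adamts1, Adamts4 and Adamts5 on each control and knockout array, with grey lines joining same-numbered replicates and black bars giving mean and SD (n = 4). The Adamts15 knockout arrays all lie below the control arrays, whereas the groups of the other genes overlap.

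The remaining Adamts genes gave no call either. Adamts3, which removes the amino-terminal propeptide of procollagens, was dim, at 356, 384, 320 and 220 across controls and 584, 476, 343 and 382 across knockouts 1 to 4. It was higher in 4 of 4 pairs, by a difference in log2 of 0.40 (SE 0.24, limma adjusted p = 0.999) that the added constant understates, with 0.35 in odd-numbered and 0.45 in even-numbered pairs. Adamts6 and Adamts10, both linked to fibrillin microfibrils, gave -0.17 (SE 0.24) and -0.065 (SE 0.15). Adamts7, Adamts12 and Adamts16 gave -0.26 (SE 0.21), -0.042 (SE 0.17) and -0.065 (SE 0.24), and the second tested probe set of Adamts16 gave 0.13 (SE 0.29), the opposite sign. Adamts8, Adamts18, Adamts19 and Adamts20 were too dim to be tested.

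Among the metalloproteinases, Mmp2, Mmp3, Mmp9 and Mmp11 were lower in the knockout within most or all pairs, by less than their spread from replicate to replicate. Mmp11 (stromelysin 3, a protease of tissue remodelling found in fibroblasts) read 2545, 3476, 8861 and 6665 across controls 1 to 4, against 1778, 2765, 5121 and 3490 across knockouts 1 to 4. Controls spanned 3.48-fold and knockouts 2.88-fold, so the groups overlapped widely, yet the knockout was the lower in 4 of 4 pairs, with log2 differences of -0.50, -0.32, -0.78 and -0.92. The log2 difference was -0.63, with an SE of 0.37 in the unpaired fit (limma adjusted p = 0.999) and 0.11 in the paired fit (paired adjusted p = 0.0885). The odd-numbered pairs had a mean of -0.64 and the even-numbered ones of -0.62.

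Mmp3 (stromelysin 1), a protease of broad specificity that also activates other pro-Mmps, is described in full after its values were seen. It read 4832, 3616, 1882 and 1058 across controls 1 to 4, against 3953, 2491, 1416 and 776 across knockouts 1 to 4. The spread among the replicate numbers was 4.57-fold in controls and 5.09-fold in knockouts, in the same order in both groups, and each knockout array lay below its partner. The log2 difference was -0.40, with an SE of 0.49 unpaired (limma adjusted p = 0.999) and 0.10 paired (paired adjusted p = 0.226). It was -0.34 within odd-numbered and -0.47 within even-numbered pairs.

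Of the gelatinases, Mmp2 (1439364_a_at), the type IV collagenase made by most fibroblasts, read 35909, 55351, 75368 and 68539 across controls 1 to 4, against 36864, 49312, 64647 and 50948 across knockouts 1 to 4. The array numbered 1 was the lowest in both groups, and the knockout was the lower in 3 of 4 pairs. The log2 difference was -0.19 (SE 0.22, paired SE 0.08, limma adjusted p = 0.999, paired adjusted p = 0.499), and the second probe set (1416136_at) gave -0.26 with all 4 pairs lower. Within odd-numbered replicates 1439364_a_at gave -0.092, within even-numbered ones -0.30.

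Mmp9, the gelatinase typical of macrophages, neutrophils and osteoclasts, is also given after its values were seen. It read 1565, 1100, 1218 and 554 across controls and 1347, 1068, 949 and 309 across knockouts 1 to 4, with the array numbered 4 lowest in both groups (log2 difference -0.32, SE 0.38, limma adjusted p = 0.999). Within odd-numbered pairs this was -0.27, within even-numbered pairs -0.38. The second Mmp9 probe set (1448291_at) gave -0.33 (SE 0.67) and spanned 14.2-fold among controls and 26.7-fold among knockouts. In both probe sets the knockout was the lower in 4 of 4 pairs, and neither was called. The summed signal of the 9 macrophage and leukocyte markers was 3810.3 to 4983.6 in controls and 3643.5 to 4187.5 in knockouts, and of the 6 osteoclast and neutrophil markers 5276.4 to 8712.3 and 5098.2 to 7526.5. No marker of either list read 0, and the lowest single reading was 5.3. On the arrays numbered 4, where Mmp9 was lowest, the osteoclast and neutrophil sum was the highest of its group (8712.3 and 7526.5). That sum is led by Ctsk, at a control mean of 5355, against 953 for Acp5, 372 for Mpo and 297 for Elane. Ctsk, Acp5 and Cd68 were each lower in 4 of 4 pairs, and no tested marker of either list was higher in 4 of 4. The other tested markers differed in sign, with Elane (0.42, SE 0.41), Adgre1 (0.22, SE 0.21) and Lyz2 (0.21, SE 0.24) above 0. Csf1r, Cd14 and Mpo lay below 0, at -0.012, -0.15 and -0.040. The part of other cell types in the Mmp9 signal was not tested.

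Mmp14 (1448383_at), the membrane-type enzyme that activates pro-Mmp2 and cuts fibrillar collagen, read 27858, 38774, 54133 and 41483 across controls 1 to 4, against 29693, 36855, 45223 and 40226 across knockouts 1 to 4. The groups overlapped throughout, with number 1 lowest and number 3 highest in both, as for Mmp2. The log2 difference was -0.071 (SE 0.18, limma adjusted p = 0.999), with -0.084 in odd-numbered and -0.059 in even-numbered pairs. Its other 2 tested probe sets gave -0.26 (1416572_at, lower in 4 of 4 pairs) and -0.054. Mmp17, a membrane-type enzyme held by a lipid anchor, read 515, 657, 608 and 576 across controls and 540, 532, 330 and 394 across knockouts 1 to 4, lower in 3 of 4 pairs (log2 difference -0.36, SE 0.20, limma adjusted p = 0.999; -0.35 in odd-numbered and -0.37 in even-numbered pairs). Mmp16 and Mmp24, also membrane-type, gave -0.18 (SE 0.22) and 0.060 (SE 0.18).

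The collagenases Mmp8 and Mmp13 gave -0.065 (SE 0.30) and 0.039 (SE 0.30), Mmp13 at mean signals of 293 ± 55 for controls and 320 ± 149 for knockouts (SD, n = 4 each). Mmp10 (stromelysin 2) gave 0.34 (SE 0.34), Mmp19 -0.23 (SE 0.16) and Mmp23 0.15 (SE 0.13, with a second probe set higher in 4 of 4 pairs). Of all 10 untested genes, Mmp1a, Mmp1b, Mmp7, Mmp12 and Mmp20 belong to the metalloproteinases. The 24 untested member probe sets of all kinds read 1.9 to 673.2 on single arrays.

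The level of many members differed by replicate number in both groups. In the paired fit, the F test of the 3 replicate terms, added after the values were seen, called 17 of 47 member probe sets (36.2%) at an adjusted p of 0.05, against 8.3% of all tested probe sets. They came from 9 genes, and with 1 probe set per gene the shares were 32.1% of the members and 9.37% of all tested genes. The smallest adjusted p was that of Mmp3 (limma F test, 7.72e-05), followed by Mmp11 (0.000559), and Mmp2, Mmp9, Mmp14, Adamts1 and all 3 tested Timp genes had a probe set past the threshold too. Adamts15 (0.133) and Reck (0.701) were not called by replicate number. The meaning of a replicate number is not in the labels, and what differs between the numbers was not tested. The stromal marker sum spanned 320585.5 to 391498.3 in controls and 294234.2 to 354453.0 in knockouts.

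**Figure D4:**
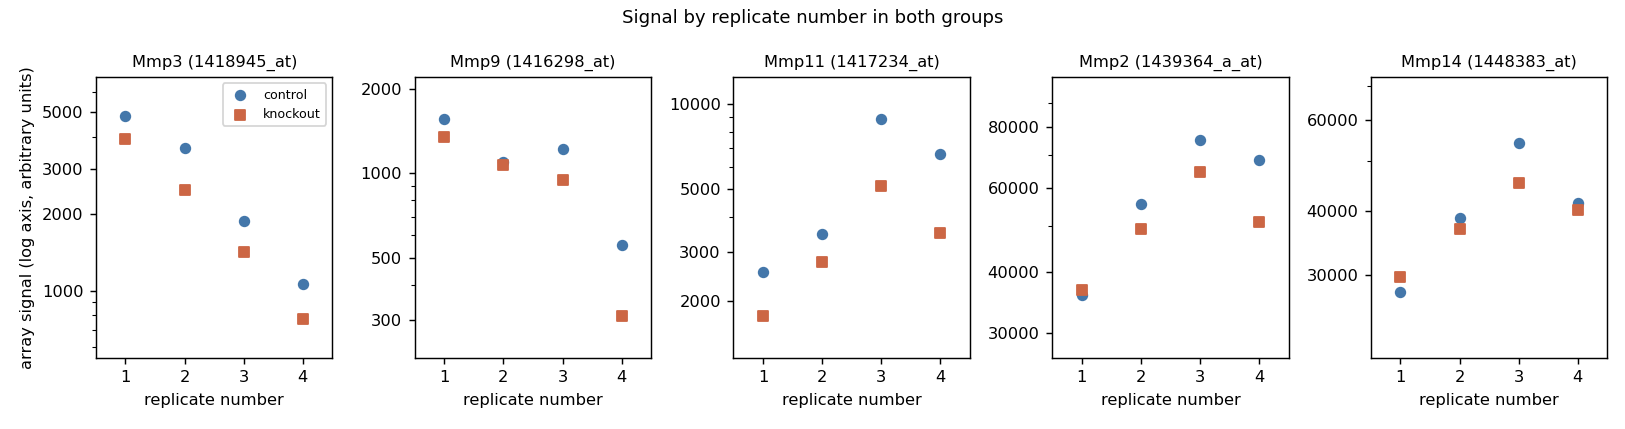
Array signal (vertical axis, log scale, arbitrary units) against replicate number for Mmp3, Mmp9, Mmp11, Mmp2 and Mmp14, with circles for control and squares for knockout arrays. In both groups number 1 is highest for Mmp3 and Mmp9 and lowest for Mmp11, Mmp2 and Mmp14, while for Mmp11 the same-numbered arrays 3 and 4 lie well apart.

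Several of these metalloproteinases are encoded next to each other on mouse chromosome 9, where members of the stromelysin and collagenase group share a promoter element. The AP-1 site, which Fos and Jun proteins bind, was searched in a loose form, TGANTCA (N any base), which reads the same on both strands. The search covered RefSeq promoters of GRCm38.p6, from 250 bases before to 50 after each annotated start. Of the 38 member genes 24 had a promoter in the table. The rest, Mmp2, Mmp9 and Adamts15 among them, could not be searched. The motif was found in 8 genes. In Mmp20 the match was TGAATCA, with A in the middle, whereas the others held G or C there. All 8 were among the 9 with a promoter on chromosome 9, and 0 of the 15 elsewhere had it, against 7.81% of all 32851 promoters. A gene counted as having it when any of its listed promoters did, and Mmp8 was the member on chromosome 9 without it. Of the 16 tested members with a promoter 3 had the motif. They are shown with 30 bases on each side of the motif, which is in capitals, because their signals can be set beside a shared element. The regions are chr9:7445746-7445812 for Mmp3, chr9:7502249-7502315 for Mmp10 and chr9:7272449-7272515 for Mmp13, all on the plus strand.
Mmp3: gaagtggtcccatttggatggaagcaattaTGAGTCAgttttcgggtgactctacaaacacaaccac
Mmp10: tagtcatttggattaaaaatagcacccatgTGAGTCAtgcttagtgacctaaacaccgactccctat
Mmp13: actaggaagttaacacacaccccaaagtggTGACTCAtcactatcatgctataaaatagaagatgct

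The motif begins 46 bases before the start of Mmp3, 63 before that of Mmp10 and 35 before that of Mmp13. The log2 differences were -0.40 (SE 0.49) for Mmp3, 0.34 (SE 0.34) for Mmp10 and 0.039 (SE 0.30) for Mmp13. With SEs of this size the values do not settle whether the 3 genes share a sign. Mmp10 and Mmp13 were dim, at control means of 266 and 293. A match describes these letters and not the binding of a factor.

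Of 6 lists of other genes of the pathway, with 69 tested genes, 0 genes were called by limma in either fit. An unadjusted p under 0.05 was reached by 2 genes (2.90%) in the unpaired fit, against 3.93% of all tested genes. In the paired fit 8 were higher at that level (11.6%, against 4.96% of all tested genes) and 5 lower (7.25%, against 5.35%). Among activators, surface partners and clearance receptors 13 of 18 tested genes had a log2 difference above 0 and 5 below, with a median of 0.14. Furin, which cleaves the propeptide of membrane-type Mmps, gave -0.074 (SE 0.19), Bsg, a surface inducer of Mmps, 0.016 (SE 0.10), and Plau, the urokinase that makes plasmin, 0.41 (SE 0.24). Among the Adam relatives 8 of 11 were above 0 and 3 below, with a median of 0.067. Adam10 gave 0.21 (SE 0.12) and Adam17 -0.0039 (SE 0.16).

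The Adamts-like proteins, which have no protease domain, had 3 of 5 above 0 and 2 below (median 0.12). Both tested astacin proteases were below 0, with Bmp1, the procollagen C-proteinase, at -0.17 (SE 0.15). Matrix substrates had 11 of 20 above 0 and 9 below, with a median of 0.0016, and Vcan and Col1a1 gave 0.023 (SE 0.17) and 0.0015 (SE 0.16). Transcriptional inducers had 6 of 13 above 0 and 7 below, with a median of -0.015. The AP-1 genes Fos, Jun and Fosl1 gave -0.41 (SE 0.42, paired SE 0.11), -0.089 (SE 0.13, paired SE 0.09) and 0.26 (SE 0.16, paired SE 0.11). Fos was lower in 3 of 4 pairs and Fosl1 higher in 4 of 4, with paired adjusted p of 0.254 and 0.504. The 2 genes with an unadjusted p under 0.05 in the unpaired fit, named after their values were seen, were Ets2, a transcription factor with sites in several Mmp promoters (-0.46, SE 0.13), and Thbs1, a matricellular protein that binds several Mmps (0.48, SE 0.19). Both were under it in the paired fit too, where the other 11 were Dcn, Fos, Fosb and Adam22 on the lower side and Cd44, Adamtsl3, Ets1, Adam10, Fosl1, Col4a2 and Adam23 on the higher.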

How the data were processed

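The authors deposited 1 linear array intensity (signal) per probe set and array, made with Affymetrix GCOS 1.3 and MAS5 per the submitters' processing notes. The trimmed mean, with 2% left out at each end, was 1500.0 on each array, so values had been scaled before deposit. No other step is named in the labels.

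From these values, log2(signal + 73.1) was taken, with the 20th percentile of all values as constant, so that differences of dim probe sets are understated. Signals of different probe sets cannot be compared. After removal of 64 array controls, the brightest 60% of probe sets by mean log2 over all 8 arrays, 27026 in number, entered the test with R 4.3.3 and limma 3.58.1 (lmFit, eBayes with trend, two-sided, Benjamini-Hochberg over all tested, threshold 0.05). The fit was tested on simulated data. Figures used Python 3.11.15 and matplotlib 3.10.9. SEs are those of the fit. The number of arrays limits the precision.

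Deviations from the group means correlated at 0.189 to 0.372 between same-numbered arrays of both groups and at -0.347 to 0.149 between others. As every same-numbered pair exceeded 0.1, the numbers were taken as pairs. The unpaired fit was kept as the main one.

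A gene's symbol came from the platform annotation and, by gene ID, 0 of the 38 member symbols differed in a RefSeq table. The members and lists were chosen with earlier results of these data known. Array values are given for Reck, each tested Timp, and the 8 member genes with the smallest p and the 8 with the highest mean signal, other members by range and count. Alternatives varied the constant, filter, normalization, variance model, array weights and arrays entered.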

Additional observations from a re-analysis of the deposited data

Results flagged for a closer look

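In 2 of the 26 groups of 4 arrays checked for the 13 genes the naming rule picked, 1 array lay far from the other 3 by Dixon's ratio of gap to range on the log2(signal + 73.1) scale, above the critical value for groups of 4, which chance exceeds in about 1 of 20 groups. Adamts1 on control array 2 read 6850 against 9199 to 9508 on the other controls (ratio 0.899, and 0.884 on the linear signals), and knockout array 2 was the lowest knockout as well. Adamts15 on knockout array 4 read 877 against 1132 to 1187 (ratio 0.843, but 0.824 on the linear signals, under the critical value), and control array 4 was the lowest control.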

How the results depend on the processing

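Under each alternative that gives a test, the replicate block included, 0 member probe sets and 0 genes of the pathway lists were called; the values within odd-numbered and even-numbered replicates and the mean over the probe sets of a gene have no test. The count over all probe sets, 1 in the unpaired fit, was 13 with the replicate block and 0 with no filter on dim probe sets, with median centring or without the mean-variance trend. It ran from 0 to 80 when single arrays or, in the paired fit, both arrays of a number were left out, the 80 without replicate 1; it was 2 in the paired fit without replicate 4 and in the unpaired fit without control 1. The member median stayed between -0.201 and -0.0356. Timp3 changed sign within the even-numbered replicates (-0.00527) and, with arrays left out, ran from -0.126 to 0.197; Mmp14 ran from -0.238 to 0.0806. The signs of the other 11 genes the naming rule picked were kept under each alternative that gave a value (Adamts3 and Mmp17 have none among the upper 40%). With arrays left out, Adamts15 ran from -0.954 to -0.649, Reck from 0.242 to 0.45, Mmp11 from -0.929 without control 1 to -0.339 without control 3, Mmp2 from -0.413 without control 1 to -0.0531 without knockout 1, Timp1 from -0.219 to -0.0324, Adamts1 from -0.399 to -0.144, Timp2 from -0.444 to -0.19 and Adamts5 from 0.108 to 0.324. The causes of these shifts were not tested. Low signal limits what can be said of the 10 untested genes.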

Other observations

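Mmp12, the macrophage elastase, was too dim to be tested but read 279.8 on knockout array 2 and 15.2 to 32.3 on the other 7 arrays. On that array the macrophage and leukocyte markers summed to 3643.5, the lowest of the 8 arrays. That sum adds probe sets of unlike brightness, and the source of the single Mmp12 reading was not tested.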
